A study of Mus musculus with 8 samples.

Results

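Cholecystokinin and gastrin are related peptide hormones of the gut, and this account follows their genes, Cck and Gast, with the genes of their receptors, Cckar and Cckbr. The 4 genes were found by the gene name that the array design gives each probe, which returned 4 of 36083 gene names and 5 of 55681 probes, with 2 probes for Cckbr and 1 for each of the other genes. Of the 4 genes, 3 passed the filter on dim probes and were tested; the exception was Cckbr.

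The samples were total RNA of mouse small intestine at stage E18.5. The control group held 4 wild-type samples (Rfx6+/+) and the knockout group 4 homozygous samples (Rfx6-/-). Heterozygotes had been obtained by mating Rfx6 f/+ mice with CMV-Cre mice, whose Cre is active throughout the body, and were then crossed with each other, so the gene was lost in all tissues and not in the gut alone. The labels name no other allele, strain or treatment. RNA of each sample was hybridised to 1 Agilent array in 1 colour; the number on each sample's title differs, but nothing says that each sample came from a separate embryo, so p-values measure only the spread between these samples, which may be technical. The study asked which genes of the small intestine depend on Rfx6, a transcription factor of the endocrine lineage of gut and pancreas.

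Cholecystokinin is released by enteroendocrine I cells of the proximal small intestine when fat and protein arrive, and it drives secretion of pancreatic enzymes, contraction of the gallbladder and satiety. Gastrin is made mainly by G cells of the gastric antrum and drives acid secretion through histamine-producing enterochromaffin-like cells and parietal cells. Both prohormones are cut by prohormone convertases and amidated at the carboxyl end, and both can be sulfated on tyrosine. Cckar encodes the receptor that prefers sulfated cholecystokinin, and Cckbr encodes the receptor that binds gastrin and cholecystokinin about equally; both signal through G proteins of the Gq class, phospholipase C and calcium.

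Levels below are log2 of the background-subtracted signal minus the array's 75th percentile of signal, so a level of 0 is the signal of the probe at that percentile, and differences are knockout minus control. A probe is called well above background where the scanner software marks it so. The arrays lay on 1 slide and were read in 1 scan; before scaling, that percentile ranged from 636 to 741 scanner units, and 57.4% to 67.1% of the probes on an array were well above background. The 1 probe for Rfx6 itself had a control level of -3.14 ± 0.40 (SD, n = 4) and a knockout level of -2.76 ± 0.56 (SD, n = 4), no further apart than replicates were (adjusted p 0.503 by limma), so it does not check the labels. Across the array, 1145 of 23282 genes passed the threshold of an adjusted p of 0.05 (limma, 4.92% of genes tested), 602 of them lower (2.59%) and 543 higher (2.33%) in the knockout group; with arrays centred on their median instead, the split was 253 lower and 545 higher, and with 1 array left out the lower genes ran from 233 to 592, the fewest without knockout array 2. For 3409 genes (14.6%) the groups did not overlap. The samples carried the markers of the labelled tissue: all 10 enterocyte genes examined were well above background on all 8 arrays.

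Cck was the 1 gene past the threshold of the 3 tested, where 4.92% of all genes passed. Its signal on the 4 control arrays was 24667, 25030, 19429 and 22649 scanner units. On the 4 knockout arrays it was 651, 668, 673 and 627. Every knockout array lay below every control array by a wide margin, and the knockout arrays were close to each other, with a coefficient of variation of 3.17% against 11.2% for the controls. All 8 spots were well above background and none was saturated, so the size of the fall is measured on both sides. The level was 5.08 ± 0.14 (SD, n = 4) in the control and -0.08 ± 0.07 (SD, n = 4) in the knockout group. The difference was -5.16 log2 units with a standard error of 0.09 and a 95% interval from -5.37 to -4.96 (limma, adjusted p 8.1e-09), a fall of 35.9-fold that left 2.79% of the control signal. An exact two-sided permutation test gave 0.0286, the smallest value that 4 arrays against 4 allow. In the reported fit, 6 of the genes past the threshold fell by as much as Cck or more, with Cck counted among them. In these bulk samples fewer cells that express Cck and less Cck RNA per cell cannot be told apart.

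The Cck fall was of like size in both rows of the slide. Row 1 held control array 1 and knockout arrays 2, 3 and 4, and gave a difference of -5.27. Row 2 held the other controls and knockout array 1, and gave -5.22. The Cck probe (A_55_P1977431) lies on chromosome 9 at 121398943 to 121399002 of mm9, on the minus strand, and starts at base 625 of the transcript, near its end.

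**Figure D1:**
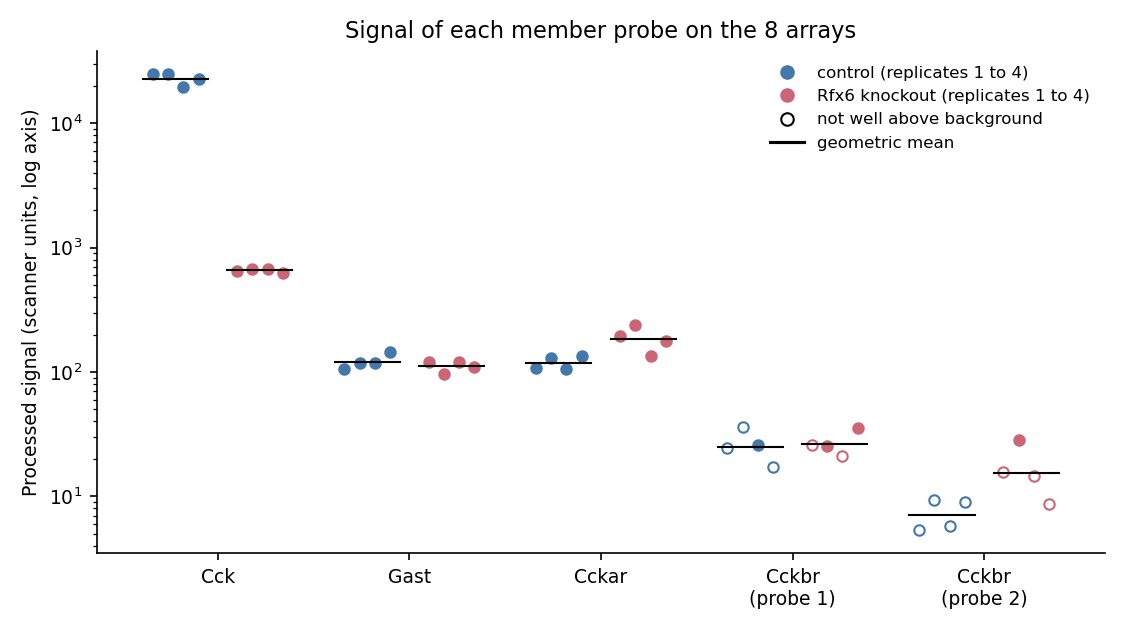
Processed signal (scanner units, log axis) of the 5 probes for Cck, Gast, Cckar and Cckbr on each of the 4 control and 4 knockout arrays; bars are geometric means, open circles are spots not well above background, probe 1 of Cckbr is A_51_P506201 and probe 2 is A_52_P596375. The Cck signal lies between 19429 and 25030 on control arrays and between 627 and 673 on knockout arrays, while the Gast groups overlap and most Cckbr spots are not well above background.

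Gast did not pass the test. Its probe gave 106, 118, 118 and 144 scanner units on the control arrays. It gave 120, 97.2, 120 and 110 on the knockout arrays. The groups overlapped, and the highest and the lowest array differed by 0.55 log2 units in level. The level was -2.48 ± 0.16 (SD, n = 4) in the control and -2.64 ± 0.13 (SD, n = 4) in the knockout group, so that they differed by -0.16 (standard error 0.11; adjusted p 0.440 by limma; 0.229 by exact permutation). The 95% interval ran from -0.40 to 0.08 and does not reach a fall of the size seen for Cck. The probe was dim, however. A fall that large would have ended below the lowest level well above background on any array (-5.56, on control array 1). Its full size could therefore not have been measured. All 8 spots were well above background. The row 1 difference was -0.00046 and the row 2 difference -0.20. The Gast probe lies on chromosome 11 at 100197806 to 100197865 of mm9, on the plus strand, and starts at base 61 of the transcript; it is shown because this one oligonucleotide carries the finding on gastrin, and it reads through without a stop codon in 2 of its 3 frames.

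Gast probe A_52_P236233: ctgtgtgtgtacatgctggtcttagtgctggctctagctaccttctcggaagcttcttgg

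Within each array the level of Cck was set against that of Gast, to test whether their changes differed. The difference between the log2 levels was 7.56 ± 0.28 (SD, n = 4) on control arrays but 2.56 ± 0.15 (SD, n = 4) in the knockout group. The change in this difference was -5.01, with no overlap between the groups (exact permutation p 0.0286, and 0.0286 after Benjamini-Hochberg adjustment over 6 such pairs). Gast ranged over only 0.55 log2 units, so this comparison largely restates the Cck fall.

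The 250 bases before the annotated start of Cck and of Gast are shown because the gene lost here encodes a DNA-binding factor. Of these related genes, Cck passed the test and the dim Gast did not. They are the RefSeq sequences on GRCm38.p6, for Cck chr9:121495695-121495944 on the minus strand and for Gast chr11:100334157-100334406 on the plus strand, written 5′ to 3′ with E-boxes in capitals.

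Cck: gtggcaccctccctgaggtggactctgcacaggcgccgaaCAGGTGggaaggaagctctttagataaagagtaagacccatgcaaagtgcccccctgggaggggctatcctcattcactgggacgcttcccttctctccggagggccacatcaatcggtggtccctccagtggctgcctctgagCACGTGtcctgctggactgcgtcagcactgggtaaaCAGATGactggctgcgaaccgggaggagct

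Gast: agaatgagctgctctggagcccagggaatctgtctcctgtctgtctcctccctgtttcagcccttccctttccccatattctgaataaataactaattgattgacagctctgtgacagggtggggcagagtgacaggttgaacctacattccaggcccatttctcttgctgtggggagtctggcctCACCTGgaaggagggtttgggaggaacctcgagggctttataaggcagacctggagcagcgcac

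The E-box, the letters CANNTG, which basic helix-loop-helix factors of the endocrine lineage can bind, was at 3 places in the Cck window and at 1 in the Gast window. It reads as an E-box on both strands, and 66.2% of 32851 RefSeq windows of the same length held it. The RFX half-site GTTGCC, on either strand, was in neither window nor in that of Cckbr, and was in 10.4% of all windows. A longer X-box, GTNNCC and GGNNAC with 0 to 3 bases between them, was in none of these 3 windows and in 3.21% of all. The cyclic AMP response element, searched only as the exact letters TGACGTCA, was also in none of the 3 and in 1.55% of all. Variants of these letters were not searched, so the windows are not shown to lack such an element. The Gast window held the letters TATAAA on the minus strand, as did 12.4% of all windows on either strand, and the Cck window did not. These are matches of letters in a short window and measure no binding.

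The receptor Cckar was the member nearest to a call without reaching it. Its signal was 107, 129, 105 and 135 scanner units on the control arrays. It was 194, 240, 135 and 177 on the knockout arrays. Knockout arrays 1, 2 and 4 lay above all controls. Knockout array 3 lay just above the highest control, control array 4, in scanner units (134.74 against 134.56). In scaled level it lay within the control range (-2.41 against -2.37 on control array 4). The level was -2.51 ± 0.12 (SD, n = 4) in the control and -1.93 ± 0.37 (SD, n = 4) in the knockout group. The difference was 0.59 with a standard error of 0.17 and a 95% interval from 0.20 to 0.97, and it did not pass (limma, adjusted p 0.0935, unadjusted p 0.0077; exact permutation p 0.0571). Without knockout array 3 the difference was 0.75 and passed (limma, adjusted p 0.0187). None of the other 19 alternatives carried it past the threshold, and the differences over all 20 ran from 0.37 to 0.75. Row 1 of the slide gave 0.70 and row 2 gave 0.54. The probe (A_51_P307741) lies on chromosome 5 at 54090045 to 54090104 of mm9, on the minus strand, and starts at base 2548 of the transcript.

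**Figure D2:**
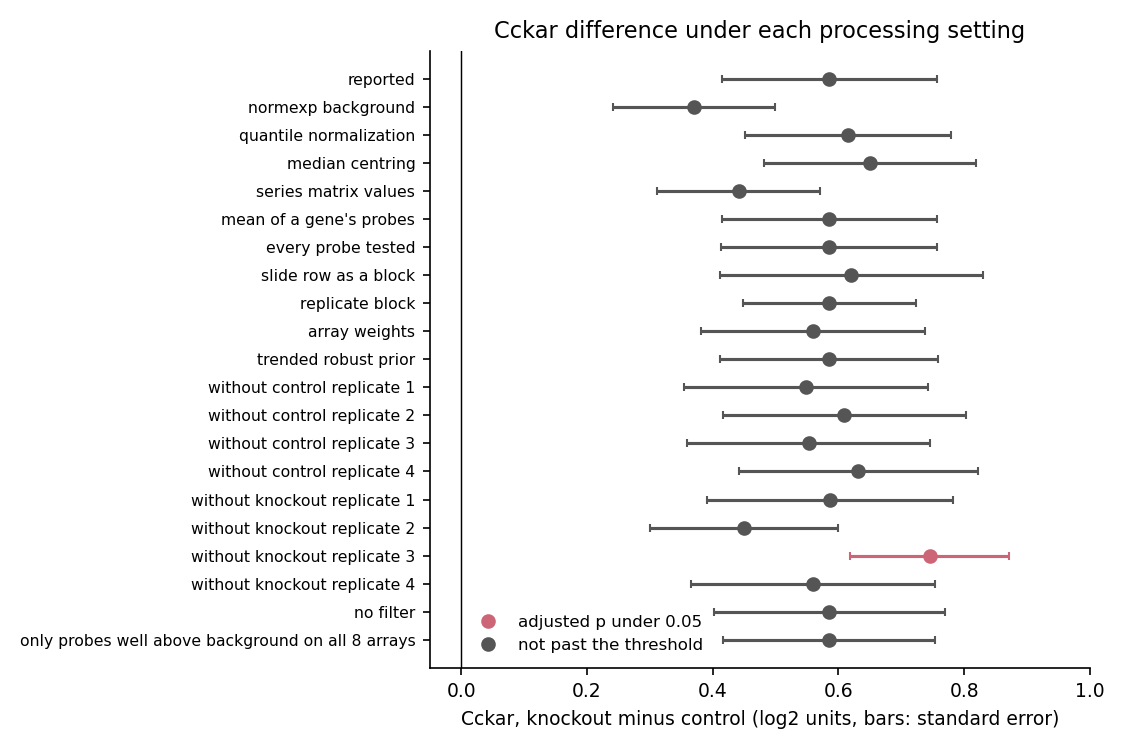
Cckar difference, knockout minus control in log2 units, in the reported fit and under 20 alternatives; points are limma estimates and bars 1 standard error. All estimates lie between 0.37 and 0.75, and the adjusted p is under 0.05 without knockout array 3 (red) and under none of the other settings.

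Cckbr, the gastrin receptor, was at the limit of detection. Its probe A_51_P506201 gave 24.6, 35.8, 26.1 and 17.2 scanner units on the control arrays and was well above background on control array 3. It gave 26.0, 25.3, 21.2 and 35.6 on the knockout arrays and was well above background on knockout arrays 2 and 4. The groups overlapped throughout. The other probe, A_52_P596375, gave 5.33, 9.38, 5.74 and 8.94 on control and 15.6, 28.3, 14.7 and 8.63 on knockout arrays, and was well above background on knockout array 2. In scanner units knockout arrays 1, 2 and 3 lay above the controls with this probe. In scaled level knockout array 4 did too, at -6.20 against -6.22 on control array 2, the highest control (exact permutation p 0.0286). But spots not well above background have no order, so no rise is read from this probe. As both probes missed the filter, Cckbr was not tested in the reported fit and no fold is given. When the filter was dropped, the brighter probe showed a difference of 0.04 (standard error 0.27; adjusted p 0.95 by limma). Both probes lie on the plus strand of chromosome 7 of mm9, at 112582327 to 112582546 and at 112584581 to 112584640. The first is shown because it reads the receptor's open frame: its 60 bases cover 220 bases of the genome, so it crosses an intron, and 2 of its 3 frames have no stop codon.

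Cckbr probe A_51_P506201: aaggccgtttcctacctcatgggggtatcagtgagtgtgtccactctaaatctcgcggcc

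Cck was next placed among 15 peptide hormone genes of the gut, of which 14 passed the filter and Mln was not matched to a probe. Of the 14, 9 fell and 1 rose, against 2.59% and 2.33% of all genes, and the median difference was -2.40 against -0.05 for all genes tested. This list was drawn up with earlier results of these data known, so its direction is no independent evidence. Gip, the incretin of K cells, was at least 173-fold lower and Gcg, the gene of the glucagon-like peptides, at least 112-fold lower; no knockout array showed either of them well above background. Sst, which encodes the inhibitory hormone somatostatin, differed by -7.33 (limma adjusted p 9.2e-08) and was well above background on 1 of 4 knockout arrays. Ghrl, the gene of ghrelin, fell by 6.85 log2 units and Nts, the gene of neurotensin, by 6.57. Ucn3, which encodes a urocortin, was at least 3.27-fold lower. Folds given as at least hold for the reported processing only. Normexp background correction gave smaller differences, of -5.48 for Gip, -5.07 for Gcg, -4.998 for Sst, -6.26 for Ghrl, -5.40 for Nts and -0.75 for Ucn3, and the authors' series matrix values gave -5.49, -5.06, -5.001, -6.24, -5.33 and -0.60 in the same order. Sct, the gene of secretin, fell by 1.55 log2 units, or 2.93-fold. Insl5, a hormone of the distal gut, fell by 1.38, but the call was lost without control array 1, 3 or 4 or knockout array 1, 2 or 4 (differences from -1.59 to -1.16 with 1 array left out), and with median centring or slide row as a block. Tac1, the gene of substance P, rose by 0.45, and this call was lost without control array 1, 2 or 4 or any 1 knockout array (0.39 to 0.52), and with slide row as a block. Pyy, the gene of peptide YY, differed by -2.65 and did not pass (limma adjusted p 0.127); it stood at 1.41 on knockout array 1 and passed without that array, at -3.68. Vip and Penk, which are largely neuronal, differed by 0.05 and 0.04 and did not pass.

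**Figure D3:**
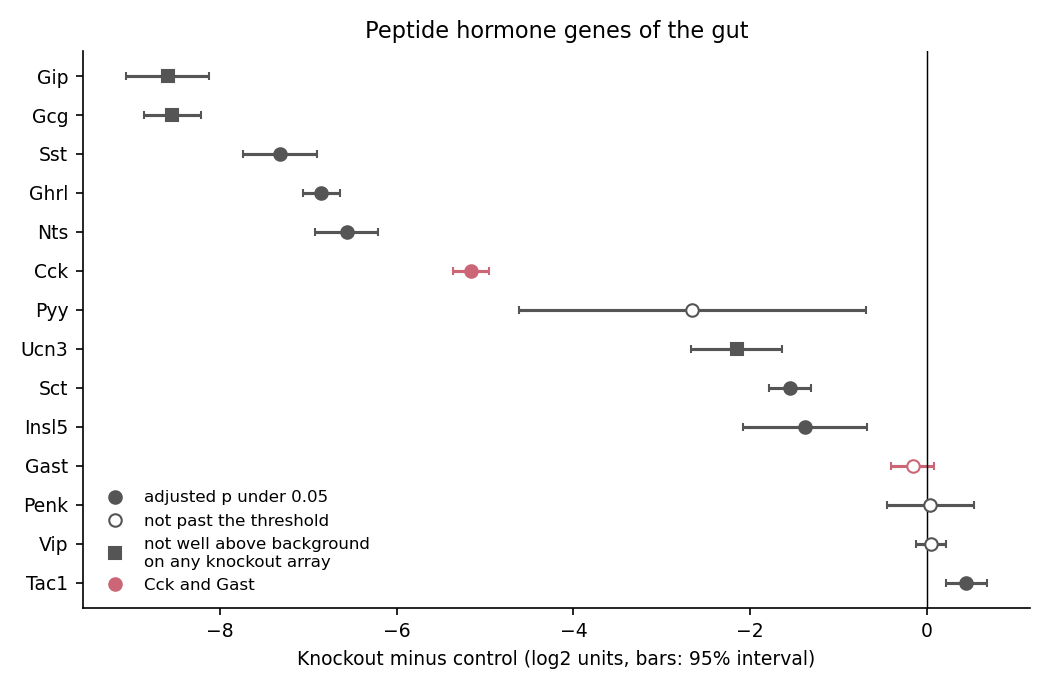
Difference of 14 peptide hormone genes, knockout minus control in log2 units, with 95% intervals from limma; filled marks have an adjusted p under 0.05, and squares mark genes that no knockout array showed well above background, so that their difference is not a measured fold. Cck, at -5.16, has a short interval and lies between Nts at -6.57 and Pyy at -2.65, and Gast, at -0.16, lies by the line at 0.

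The size of the Cck fall differed from the changes of the 4 other hormones compared with it. In the within-array comparison Cck fell by 3.61 log2 units more than Sct. Against Pyy, which did not itself pass, the change was -2.51, and -1.45 when knockout array 1 was left out. Set against Nts, the change was 1.40 in the other direction, Nts having fallen further. That margin shrank to 0.38 with normexp background correction and to 0.37 with the authors' series matrix values. Ghrl fell further than Cck by 1.69. Against the receptor Cckar the change was -5.75. Each of these comparisons had no overlap between groups and an exact permutation p of 0.0286, also after adjustment over the 6 pairs. That is the smallest value the test allows, so it does not rank the pairs. Cckar and Sct changed far less than Cck, so their pairs, like that with Gast, largely restate the Cck fall. The pair with Cckbr was not run because Cckbr did not pass the filter.

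Profiles over the 8 arrays, each taken relative to its control mean, were compared with that of Cck, and Nts, Ghrl, F12 and Iapp were among the 5 nearest. The root mean square differences were 1.01 for Nts, 1.20 for Ghrl, 1.28 for F12 and 1.29 for Iapp. F12 encodes coagulation factor XII, and Iapp amylin, an islet hormone. No knockout array showed F12 well above background, so its distance depends in part on background signal; it was at least 4.99-fold lower, though normexp gave -1.20 and the series matrix values -1.18. Iapp was well above background on all 8 arrays and fell by 3.39, and by 1.99 with normexp and 1.97 with the series matrix values. The nearest profiles to Cckar were those of Fst at 0.13, the transcript ENSMUST00000131216 at 0.17, Kif13b at 0.17, C2cd4a at 0.17 and Emp2 at 0.17. All 5 shared with Cckar a lower value on knockout array 3 than on knockout array 2. They were picked for a profile like that of Cckar, so this follows from the choice. Emp2 passed the test, at 0.47 (limma adjusted p 0.0279), but not without control array 1, 3 or 4 or knockout array 1, 2 or 4 (0.41 to 0.55), with slide row as a block or when its probes were averaged. ENSMUST00000131216 was at least 1.12-fold higher, since no control array showed its probe well above background; its call (limma adjusted p 0.0343) was lost without any 1 control array, without knockout array 1, 2 or 4, with normexp (0.11) and with the series matrix values (0.21). The Gast level ranged over too little for its nearest profiles to be sought.

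**Figure D4:**
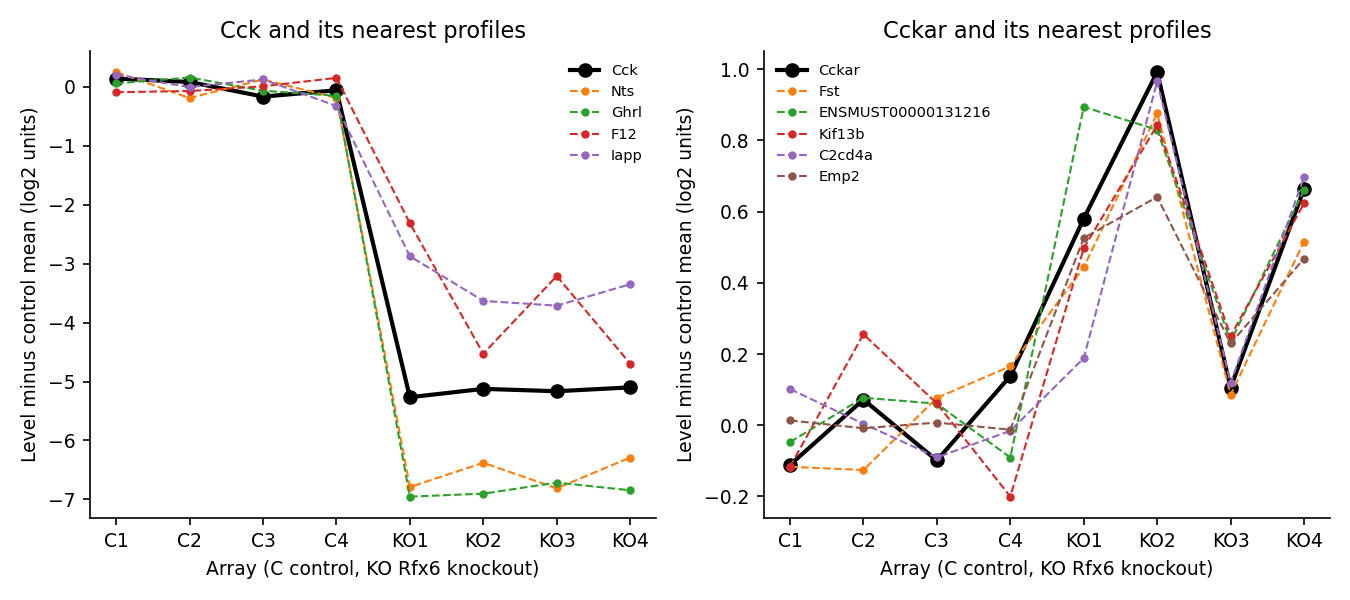
Level of Cck (left) and Cckar (right), in black, and of genes among the 5 with the nearest profiles (4 for Cck, 5 for Cckar), relative to the control mean in log2 units, on control arrays (C1 to C4) and knockout arrays (KO1 to KO4); lines only guide the eye, as replicates have no order. Cck lies near -5 on every knockout array, and Cckar on knockout array 3 lies at the level of the control arrays.

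The genes that process the prohormones or fill the secretory granule were called about as often as genes at large. Of 20 listed, 19 passed the filter, 1 fell and 0 rose (limma, adjusted p under 0.05), where 4.92% of all genes tested were called; the median difference was 0.05 against -0.05 for all genes. The one that fell was Scg2, which encodes the granule protein secretogranin II, at -1.25 (standard error 0.21; adjusted p 0.0115 by limma). Pcsk1, the convertase of many enteroendocrine prohormones, differed by -0.12 and Pcsk2, a second convertase, by -0.14. Cpe, the carboxypeptidase that trims their products, differed by 0.12, and Pam, which amidates the carboxyl end of cholecystokinin and gastrin, by 0.18. The tyrosine sulfotransferases Tpst1 and Tpst2 differed by 0.29 and -0.12. The granule proteins Chga and Chgb differed by 0.26 and 0.17. None of these 8 genes passed the test, and Cpd, a further carboxypeptidase, differed by 0.60 without passing (limma adjusted p 0.0781), though it passed under 4 of 20 alternatives.

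The next list held receptors and transporters through which nutrients and bile acids can prompt the release of cholecystokinin. Of 16 listed, 10 passed the filter, 1 fell and 0 rose, against 2.59% and 2.33% of all genes, and the median difference was -0.20 against -0.05. Trpa1, a cation channel of enteroendocrine cells, fell by 0.89 (limma adjusted p 0.0021). Ffar4, a receptor for long-chain fatty acids, differed by 0.45, Cd36, a fatty acid transporter, by 0.05 and Gpbar1, a bile acid receptor, by -0.19, and none passed. Lpar5, which responds to lysophosphatidic acid and protein digests, differed by -0.43 (limma adjusted p 0.0748); it passed under 4 of 20 alternatives, at -0.30 with normexp, -0.56 with slide row as a block, -0.46 with array weights and -0.50 without control array 2. The calcium-sensing receptor gene Casr and the fatty acid receptor gene Ffar1 were among those that did not pass the filter.

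Among 15 transcription factors of I cells and the endocrine lineage, 13 passed the filter, 1 fell and 3 rose, against 2.59% and 2.33% of all genes, and the median difference was 0.10. Mlxipl, the carbohydrate-responsive factor, fell by 0.53, a call that was lost without control array 1, 3 or 4 or knockout array 1 or 2 (-0.60 to -0.45), and with median centring or slide row as a block. Foxa1 rose by 1.23, Foxa2 by 1.00 and Lmx1a by 1.16; the first pair are forkhead factors of endoderm and Lmx1a is a factor of enterochromaffin cells. Neurog3, which starts the endocrine lineage, differed by 0.46 and did not pass (limma adjusted p 0.0822); it passed under 3 of 20 alternatives, at 0.48 with the series matrix values, 0.46 with array weights and 0.56 without knockout array 4. Insm1, Pax4 and Etv1, which act in endocrine cells, differed by -0.13, 0.24 and 0.10 without passing. Pdx1, a factor of duodenum and pancreas, differed by -1.09 without passing; it passed under 4 of 20 alternatives, among them without knockout array 1, at -1.33, and with normexp, at -0.56.

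Of 16 genes that carry the signal of the receptors into the cell, all passed the filter, 1 fell and 1 rose, against 2.59% and 2.33% of all genes, and the median difference was 0.04. Gna11, a Gq-class subunit, fell by 0.42, and Plcb1, a phospholipase C, rose by 0.51. The Gna11 call was lost without control array 1, 3 or 4 or knockout array 1, 2 or 4 (-0.47 to -0.37), and under quantile normalization, median centring and slide row as a block. The Plcb1 call was lost without control array 1 or knockout array 1 or 2 (0.45 to 0.56), and when its probes were averaged. Gnaq differed by 0.03, Plcb3 by -0.22 and Itpr3, a calcium release channel, by -0.05, none past the threshold.

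Several genes that respond to gastrin in the stomach rose, while Gast did not pass the test and Cckbr did not pass the filter. Of 12 listed, 11 passed the filter, 1 fell and 5 rose, against 2.59% and 2.33% of all genes, and the median difference was 0.63. Of the 11, 8 were well above background on all 8 arrays. Atp4a, Atp4b and Cblif passed through the knockout group alone, where they were high, so the count of rises is no independent evidence. Atp4a and Atp4b encode the acid pump of parietal cells. Atp4a was at least 17.9-fold higher, since no control array showed it well above background. Atp4b differed by 7.41 (limma adjusted p 3.0e-05) and was well above background on 1 of 4 control arrays. Cblif, the gene of intrinsic factor, was at least 103-fold higher, again with no control array well above background. Normexp gave smaller differences, of 2.80 for Atp4a, 5.24 for Atp4b and 5.08 for Cblif, and the series matrix values gave 2.92, 5.44 and 5.29. Tff2, a trefoil factor, ranged from -3.27 to 1.27 on the control arrays and rose by 5.73; without control array 4, the highest control, it rose by 6.67, with slide row as a block by 6.35 and with array weights by 4.96. The growth factor gene Areg rose by 1.06; the Areg call was lost without control array 1, 2 or 3 or knockout array 1, 2 or 4 (0.85 to 1.22). Reg1, a secreted lectin gene, fell by 3.37, and by 2.57 with slide row as a block. Hdc, which makes histamine in enterochromaffin-like cells, differed by 0.63 and Slc18a2, which loads it into vesicles, by -0.19, neither past the threshold.

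**Figure D5:**
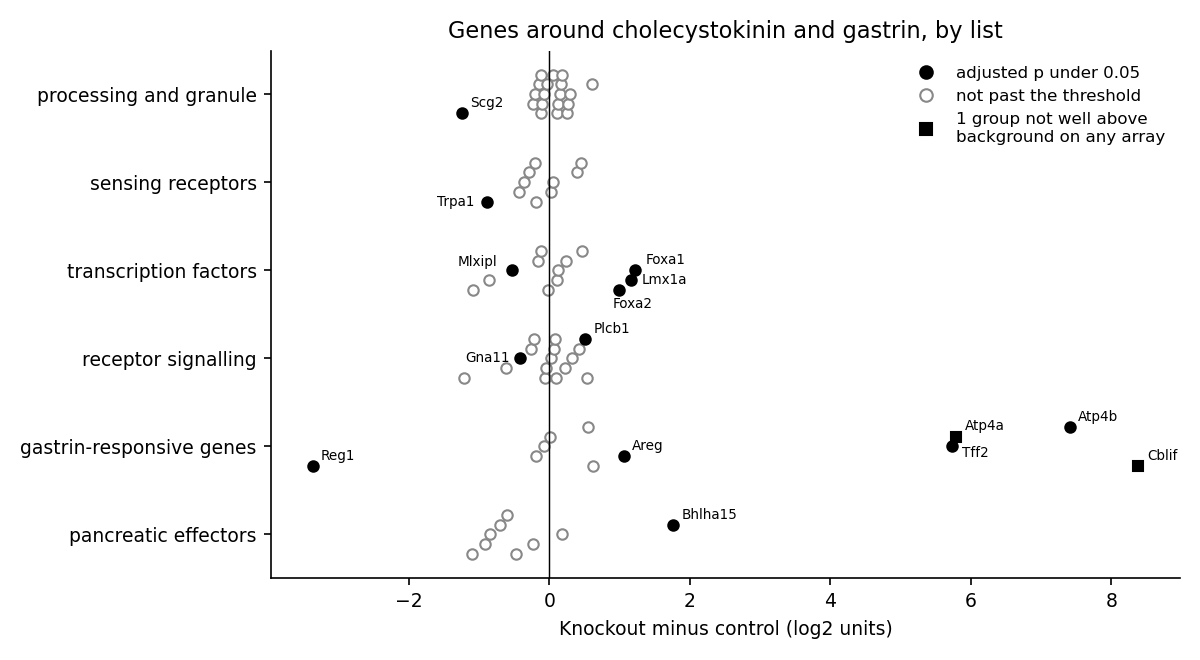
Difference of each tested gene of 6 lists around cholecystokinin and gastrin, knockout minus control in log2 units; filled marks have a limma adjusted p under 0.05 and are named, and squares mark genes that no array of 1 group showed well above background, so that their difference is not a measured fold. Most genes of processing, sensing and receptor signalling lie close to 0, while 4 gastrin-responsive genes lie above 5.

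Of the acinar genes on which cholecystokinin acts in the pancreas, 9 of 10 passed the filter, 0 fell and 1 rose (limma, adjusted p under 0.05), against 2.59% and 2.33% of all genes, and the median difference was -0.60. Bhlha15, a factor of secretory cells, rose by 1.76. Amy2a5, an amylase gene, differed by -0.84 and Ctrb1, a chymotrypsinogen gene, by -0.48. Their levels varied widely between arrays of a group, with SDs of 0.85 and 0.81 (n = 4) in the controls.

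Markers of other cells and tissues were read beside these results. Of all genes tested, 2.59% were called lower and 2.33% higher. The summed level of a list is given on a linear scale, in multiples of the array's 75th percentile. The 11 stomach epithelium markers that passed, of 12, summed to between 0.95 and 6.69 on control and between 388 and 718 on knockout arrays, and 8 of them rose. Of the 11, 4 were well above background on all 8 arrays, and the others passed the filter through the knockout group alone. Atp4a, Atp4b, Cblif and Tff2 belong both to this list and to the gastrin-responsive genes. The part of the stomach signal in the values of Gast, Cckbr and the gastrin-responsive genes was not tested. Exocrine pancreas markers, 10 of 12 passing, summed to 31.3 to 98.0 on control and 19.9 to 56.9 on knockout arrays with 0 called (limma). All the acinar genes listed above except Rnase1 and Bhlha15 belong to this list too, so the lists are not separate evidence. The part of pancreatic tissue in the values of the acinar genes was not tested. Of the 4 endocrine pancreas markers that passed, of 7, 3 fell, and the sums were 6.0 to 7.0 on control and 5.1 to 5.6 on knockout arrays. These sums mostly follow Mafa, by far the brightest of the 4, with a mean level of 2.26 in the control and 2.22 in the knockout group. Iapp was 10.5-fold lower, the insulin gene Ins1 4.83-fold and the insulin gene Ins2 1.72-fold. Ins1 was well above background on 3 of 4 knockout arrays and fell by 2.27, and by 1.22 with normexp and 1.19 with the series matrix values. The Ins2 call was lost without control array 3 or knockout array 1 or 2 (differences from -0.89 to -0.66) and with median centring. Mafa, a beta cell factor, differed by -0.04 without passing, and this direction turned with quantile normalization, median centring and the series matrix values. The islet hormone gene Ppy was well above background on 1 of 4 control and 0 of 4 knockout arrays and did not pass the filter. The part of pancreatic tissue in the Cck fall was not tested.

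Cckar is also known from smooth muscle, interstitial cells and nerves. Smooth muscle and interstitial markers, all 10 passing, summed to 301 to 372 on control and 346 to 426 on knockout arrays. Of these Ano1, a marker of interstitial cells, rose by 0.64. Kit, another, rose by 0.41, a call that was lost without any 1 control array or knockout array 1, 2 or 3 (0.35 to 0.48), and with median centring, every probe tested or slide row as a block. Enteric neuron and glia markers, 11 of 12 passing, summed to 9.9 to 12.9 on control and 11.8 to 13.5 on knockout arrays, with 0 called. The part of these cells in the Cckar values was not tested. Of 10 enterocyte markers 4 fell, where 2.59% of all genes tested fell and 2.33% rose. Of 8 goblet and Paneth cell markers 1 fell and 1 rose. Of 7 liver markers 2 rose, and of 7 immune markers that passed, of 8, none was called (limma). The 7 markers of proximal and distal intestine, of which 1 fell and 2 rose, summed to 86.8 to 134 on control and 313 to 423 on knockout arrays. Fabp6, a bile acid binding protein gene of the ileum, rose by 5.04 (limma adjusted p 0.0206). Its level ranged from -0.18 to 4.84 on the control arrays. The call was lost without control array 1 (4.73) or knockout array 1 (5.03) or 2 (4.88), and with slide row as a block (5.37). It was kept at 4.11 without control array 2, 5.79 without control array 3 and 3.82 with array weights. On knockout arrays the sums of this list mostly follow Fabp6 and Guca2a, with mean levels of 7.65 and 6.99, against 2.61 and 6.34 in the control group. Guca2a rose by 0.65, and the gene that fell was Gata4, by 0.51 (limma adjusted p 0.0396). Onecut2 differed by -0.86 and Slc10a2 by 0.65, neither past the threshold. The calls of Guca2a and Gata4 were not checked under the alternatives. Since cholecystokinin cells lie mostly in the proximal part, the part of the sampled region in the Cck values was not tested.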

How the data were processed

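From each of 8 samples 100 ng of total RNA was amplified and dyed with cyanine 3, per the labels' protocols, and the arrays were read with Agilent Feature Extraction 10.10.1.1, per the file headers. The authors' deposited scanner files hold a linear intensity per spot; the processed signal used here had background subtracted by that software and carried no scaling between arrays. A second intensity per spot, in the authors' series matrix, fits quantile normalization of spot medians without background subtraction; it served as an alternative. Probe coordinates come from the files, which use mm9.

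Here 3671 of 62976 spots, the control spots, were left out with 153 to 355 outlier spots per array. Spots of a probe were averaged as log2 signal minus the array's 75th percentile. The filter kept probes that were well above background throughout at least 1 group (4 of 4 arrays), and the brightest probe stood for its gene. A GRCm38.p6 gene table updated names: 2863 probes were named by accession, 492 by synonym, and 26006 kept the file's name. Groups were compared with limma 3.58.1 in R 4.3.3, two-sided, Benjamini-Hochberg adjusted over 23282 genes. The fit was tested on simulated data. Single comparisons used exact permutation over 70 splits. Where a group had no array well above background, a bound is given: the bright group's mean over a floor, which on each array is the dim probe's own signal or the smallest signal of any probe well above background, whichever is higher. Such a bound holds for the reported processing only, and differences with normexp or the series matrix values can lie below it. The number of arrays limits the precision.

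The named genes are the 4 genes, the genes of lists that passed the filter, by count and with values for those called or chosen for their role, and the 5 nearest profiles of each tested member whose level ranged over more than 1 log2 unit. One gene of a list and of the nearest profiles is not reported here. Members and lists were chosen with earlier results of these data known. Alternatives were normexp background (offset 50), quantile normalization, median centring, the series matrix values, no filter, a filter on all 8 arrays, averaging the probes of a gene, testing each probe, slide row and replicate number as blocks, array weights, a trended robust prior, and leaving out each array.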

Additional observations from a re-analysis of the deposited data

Results flagged for a closer look

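For the named genes, 138 groups of 4 arrays were examined, and in 7 of them (5.07%) a single array stood apart; chance gives about 1 in 20, or 6.9 groups. None was a value of Cck, Gast, Cckar or Cckbr. Pyy was high on knockout array 1, at 1.41 against -2.78 to -2.56 on the other knockout arrays; this is the array that moves the comparison of Cck with Pyy. Sst stood at 1.75 on control array 2, below the 1.98 to 2.03 of the other controls. Neurog3 was low on knockout array 4, at 0.72 against 1.09 to 1.15, and Lmx1a stood at -3.11 on control array 2, below the -2.66 to -2.62 of the other controls. Cd36 was high on knockout array 3, at 2.18 against 1.85 to 1.90. For Rfx6 it was control array 4 that was low, with -3.74 where the other controls had -2.98 to -2.91. Atp4a was high on control array 3, at -5.95 against -6.57 to -6.48, but no control array showed it well above background.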

How the results depend on the processing

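Under 20 alternatives the Cck fall kept its direction and its side of the threshold, with differences from -5.25 to -4.96. Gast stayed short of the threshold under the same 20, with differences from -0.22 to -0.089. Cckar ran from 0.45 to 0.75 with 1 array left out, and passed without knockout array 3. Cckbr did not pass under any of the 18 alternatives that gave it a value, from -0.16 to 0.56; the filter decides whether it is tested at all. Calls over all genes moved more: median centring gave 253 lower, no filter 202 lower and 298 higher over 36083 genes, and array weights 1268 lower and 829 higher; the cause was not tested. With 1 array left out they ran from 233 to 592 lower and 349 to 516 higher, with fewer samples; the lower genes moved by more than 1.5 times without control arrays 1 (243), 3 (313) and 4 (359) and knockout arrays 1 (245) and 2 (233), the higher genes without control array 1 (355) and knockout arrays 1 (353) and 2 (349). The median of all genes was -0.051 as reported and 0.013 with median centring. Replicate numbers did not pair the samples, the correlations of deviations being -0.072, -0.173, 0.073 and -0.414; with the replicate block Cck differed by -5.16 (limma adjusted p 3.7e-05) and 148 genes were lower and 268 higher. Rows of the slide and groups were partly confounded. For 65 other named genes, 1164 of 1289 values kept direction and side, 103 fell short of the threshold, 22 newly passed and 0 called values reversed. Of their calls 11 were lost with no filter, and 14 with the replicate block, among them Scg2 (limma adjusted p 0.0532), Reg1 (0.063) and Ins1 (0.079). Signal over background limits Cckbr.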
